A study of Mus musculus with 4 samples.

Results

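The transcription factors Mafa, Pdx1, Nkx2-2, Nkx6-1, Neurod1, Pax6, Isl1, Foxa2, Rfx6 and Insm1, which set or hold the identity of pancreatic islet cells, were followed through single islet cells of mice with and without an insertion mutation of Myt3. These 10 genes were picked by name from the 32227 genes of the count matrices, and all 10 had a row in every matrix. The labels name 4 libraries, 2 from mice homozygous for a 12-bp insertion in an exon of Myt3 (Myt3IM/IM, here mutant 1 and mutant 2) and 2 from controls homozygous for the wild-type allele (control 1 and control 2). Expression was read in mutant 1, mutant 2 and control 2, and control 1 was not analysed here. The insertion disrupts an upstream open reading frame and is carried by every cell of the mouse. It was made by CRISPR-Cas9 in a founder that was then crossed to wild-type mice. For these mice the study names different strains in its results and its methods, so the genetic background is not settled here. Each library pooled islets of adult males and females. The study gives a high-fat diet for both genotypes and inDrop-Seq, whereas a normal diet and PIPseq stand in the labels, and the counts do not settle which is right. Transcripts were counted as unique molecular identifiers (UMIs), so that each captured RNA molecule counts as 1.

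Islet endocrine cells arise from a common progenitor and keep their identity through a shared set of transcription factors. In textbook accounts, Pdx1, Nkx6-1 and Mafa are needed for the mature β-cell, where they bind the insulin genes and genes of glucose sensing and secretion. Neurod1, Nkx2-2, Pax6, Isl1, Foxa2, Rfx6 and Insm1 act more widely across endocrine cells, and Pdx1 is also present in the δ-cells that make somatostatin.

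The 3 libraries held 3023, 2045 and 2308 barcodes, of which 2940, 2040 and 2283 passed the filters, and no barcode was shared between libraries. Depth moved with genotype: the median UMIs of a kept cell were 2427 (mutant 1), 3852 (mutant 2) and 14051 (control 2). The targeted gene, St18 (the symbol of Myt3), had 169, 211 and 217 counts per 1000000 (CPM, as scaled in the next paragraph) in β-cells of mutant 1, mutant 2 and control 2, but the insertion leaves the transcript in place, so these levels check nothing about the labels. Cells were sorted into classes by the share of their UMIs from insulin (Ins1 and Ins2), glucagon, somatostatin and pancreatic polypeptide, and no transcription factor entered that rule. This gave 2134, 1481 and 1982 β-cells in mutant 1, mutant 2 and control 2. There were 323, 238 and 41 α-cells, 107, 86 and 40 δ-cells, 69, 44 and 24 PP cells and 54, 51 and 67 non-endocrine cells. The non-endocrine class was mostly endothelial (35, 31 and 36 cells) and leukocyte (15, 14 and 12 cells). It also held stellate (2, 6 and 14) and duct cells (2, 0 and 5), so stellate cells outnumbered leukocytes in control 2. In the 3 libraries, 321, 188 and 78 cells had an insulin share between 15% and 25%, close to the limit of 20%. Outside the hormones, all 3 tested β markers were lower in each other class than in β-cells, 3 of 4 α markers were higher in α-cells and 2 of 2 δ markers in δ-cells, although 1 of the δ markers, Rbp4, was also higher in α and PP cells. The 1 PP marker, Etv1, was higher in PP cells but in α and δ-cells as well, so it does not single out PP cells.

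All levels are UMIs summed over the cells of a class in a library, per 1000000 UMIs outside hormone and mitochondrial genes (CPM). They can be compared between classes and libraries for the same gene, but not between genes, because capture differs from gene to gene. The class comparisons come from edgeR's quasi-likelihood test on these sums, with the library as a block and the 3 libraries as replicates over both genotypes. Fold changes are log2 values ± SE, and adjusted p-values are Benjamini-Hochberg values over all 5613 genes tested. In bulk-like sums of this kind, fewer expressing cells and less RNA per cell cannot be told apart.

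**Figure D1:**
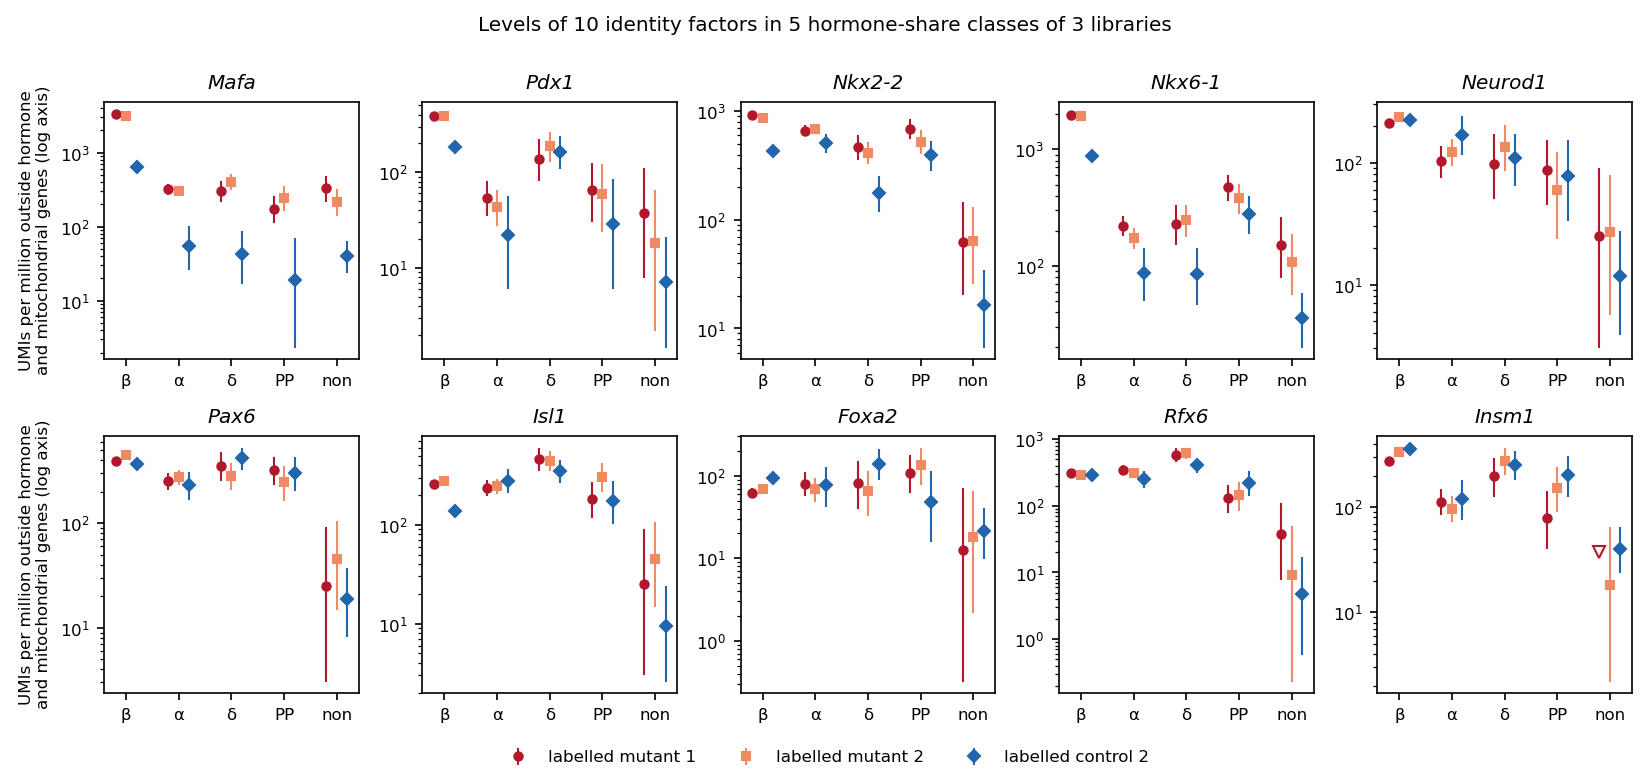
Level of each factor in β, α, δ, PP and non-endocrine (non) cells of the 3 libraries, in CPM outside hormone and mitochondrial genes on a log axis. Bars are exact 95% Poisson intervals and cover counting error only. The open triangle marks the upper limit for Insm1, with 0 UMIs in non-endocrine cells of mutant 1. Mafa and Nkx6-1 stand highest in β-cells of every library, and Isl1 and Rfx6 stand highest in δ-cells of every library.

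Against β-cells, 6 of the 10 factors were lower in α-cells, 5 in δ-cells, 6 in PP cells and 10 in non-endocrine cells. Over all genes tested, the corresponding shares called lower were 18.7%, 12.5%, 11.9% and 31.9%. The median log2 fold change of the 10 factors was -0.70 in α, -0.73 in δ, -1.06 in PP and -3.74 in non-endocrine cells, beside -0.04, -0.08, -0.07 and -0.16 over all genes. Of the factors, Isl1 and Rfx6 were higher in δ-cells, where 10.5% of all genes were called higher. No factor was higher in α, PP or non-endocrine cells, where 16.2%, 9.6% and 26.5% of all genes were. For these 3 classes, edgeR's quasi-likelihood test at an unadjusted p under 0.05 and DESeq2 also gave 0 factors that were higher.

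**Figure D2:**
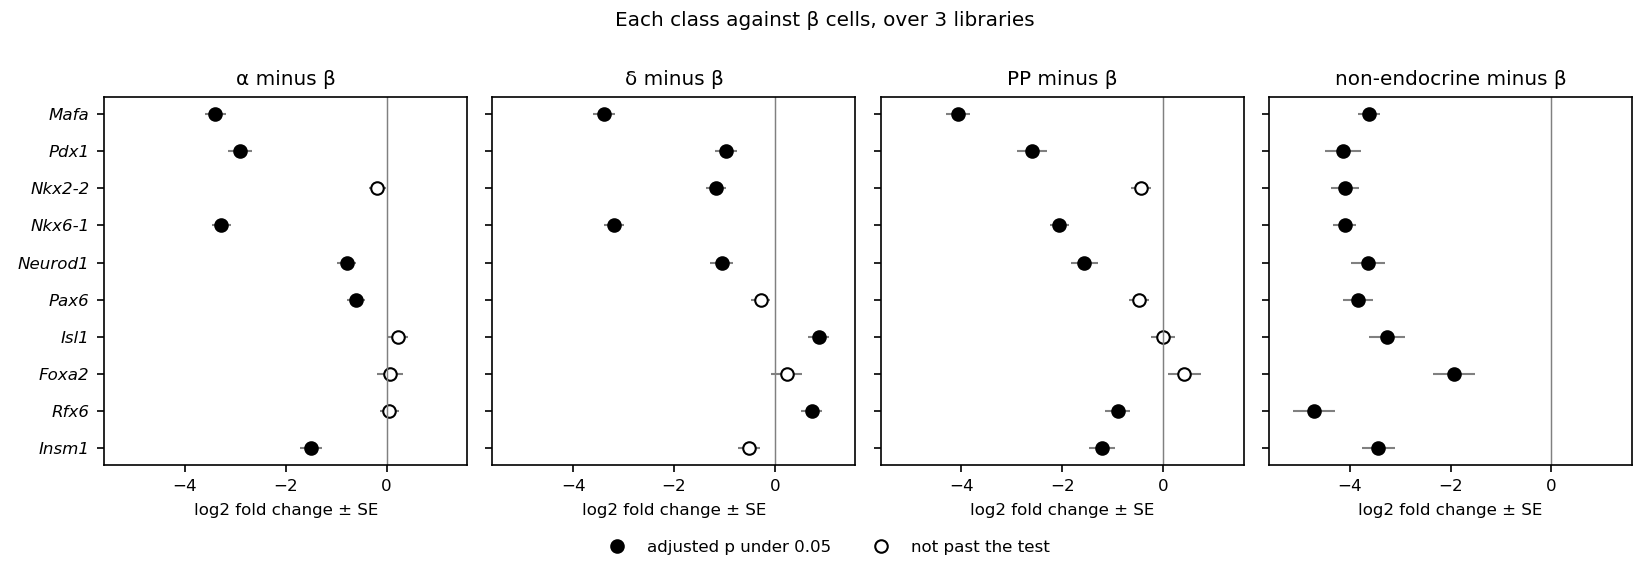
Log2 fold change of each factor in α, δ, PP and non-endocrine cells against β-cells, with bars of 1 SE from edgeR over 3 libraries. Filled points had an adjusted p under 0.05. Mafa, Nkx6-1 and Pdx1 lie left of 0 in all 4 panels, while Isl1 and Rfx6 lie right of 0 in δ-cells and Foxa2 has a filled point only in non-endocrine cells.

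Mafa, a basic leucine zipper activator of the insulin genes, was highest in β-cells. In mutant 1, mutant 2 and control 2 it reached 3320, 3118 and 644 CPM in β-cells. In α-cells it was at 319, 301 and 54.7, in δ-cells at 303, 405 and 42.3, in PP cells at 174, 245 and 19.3 and in non-endocrine cells at 327, 217 and 40.3. The β level exceeded every other level of its library, and the order of the other classes changed from library to library. The log2 fold change against β-cells was -3.39 ± 0.20 in α-cells (adjusted p = 2.77e-12), -3.38 ± 0.21 in δ-cells (6.98e-12), -4.07 ± 0.24 in PP cells (2.20e-12) and -3.61 ± 0.22 in non-endocrine cells (2.09e-13). None of the 6 differences among the α, δ, PP and non-endocrine classes passed the test, with adjusted p of 0.16 or more.

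What the non-β classes held of Mafa, as a share of the β level, can be set beside their insulin RNA. The insulin share itself set the classes, so the insulin level was bound to be lower outside β-cells. It is therefore not an independent measure of free RNA. Insulin transcripts outside β-cells stood at 4.3% to 8.8% of their β level in α and δ-cells, at 4.2% to 5.0% in PP cells and at 2.9% to 5.5% in non-endocrine cells. For Mafa these shares were 6.6% to 13.0% in α and δ-cells, 3.0% to 7.9% in PP cells and 6.3% to 9.9% in non-endocrine cells. The Mafa share lay above the insulin share in each class and library except PP cells of control 2. The non-endocrine class, mostly of endothelial cells and leukocytes, should lack Mafa, and its shares overlapped those of α, δ and PP cells. The part of free RNA in these levels was not tested.

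Nkx6-1, a homeodomain repressor that keeps α programmes off in β-cells, was at 1995, 1929 and 877 CPM in β-cells of mutant 1, mutant 2 and control 2. In α-cells it was at 222, 172 and 87.6 and in δ-cells at 229, 247 and 84.6. PP cells held 472, 381 and 280 and non-endocrine cells 151, 109 and 35.6. The β level was the highest and the PP level the next in each of the 3 libraries. Against β-cells the log2 fold change was -2.06 ± 0.19 in PP cells (adjusted p = 9.91e-09), -3.19 ± 0.20 in δ-cells (9.21e-12), -3.28 ± 0.19 in α-cells (2.77e-12) and -4.09 ± 0.23 in non-endocrine cells (3.99e-14). In the same fit, in comparisons added after the levels had been seen, PP cells held more Nkx6-1 than α-cells by 1.22 ± 0.22 (adjusted p = 0.0014) and more than δ-cells by 1.13 ± 0.23 (0.0025). Only 0.695% and 2.92% of all genes were called higher in PP cells in these comparisons. The α and δ levels did not differ beyond their error (0.09 ± 0.23, adjusted p = 0.88). As a share of the β level, PP cells held 19.7% to 31.9% of Nkx6-1. Their insulin RNA was at 4.2% to 5.0%, but the class rule itself keeps insulin low in PP cells.

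Pdx1, the homeodomain factor needed to form the pancreas and to drive insulin transcription, was highest in β-cells and next highest in δ-cells. It was at 392, 390 and 182 CPM in β-cells and at 139, 188 and 163 in δ-cells of mutant 1, mutant 2 and control 2. α-cells held 54.3, 43.5 and 21.9, PP cells 65.3, 59.2 and 28.9 and non-endocrine cells 37.8, 18.1 and 7.1. The δ level thus lay above the α, PP and non-endocrine levels of its own library throughout. Against β-cells Pdx1 was lower by a log2 fold change of -0.96 ± 0.22 in δ-cells (adjusted p = 0.0018), -2.60 ± 0.30 in PP cells (2.52e-07), -2.91 ± 0.24 in α-cells (4.40e-10) and -4.14 ± 0.35 in non-endocrine cells (1.82e-10). The added comparisons put δ-cells above α-cells by 1.95 ± 0.29 (adjusted p = 2.88e-05) and PP cells below δ-cells (-1.64 ± 0.36, adjusted p = 0.0038). Among all genes, 6.06% were called higher in δ than in α-cells and 4.12% lower in PP than in δ-cells. PP and α-cells did not differ beyond their error (adjusted p = 0.83). The difference between δ and β-cells lost its call without mutant 1 (adjusted p = 0.11), without mutant 2 (0.12), in cells of 3000 to 6000 UMIs (0.21) and on cells thinned to 500 UMIs (-0.54, adjusted p = 0.34), always with a negative fold change. The δ share of the β level was 35.5% and 48.2% in the mutant libraries and 89.7% in control 2.

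The promoters of Nkx6-1 and Pdx1, the factors that separated β-cells from α-cells most clearly beside Mafa, are given as the 250 bases before the transcription start in RefSeq (build GRCm38.p6). Of the 10 factors, 8 were found in that promoter table, with 11 windows. Capitals mark matches on either strand to TAAT (the core bound by homeodomain factors), CAGATG (an E-box of the type Neurod1 binds), TGTTTAC (a FOXA motif) and TGCTGA (part of the MAF element), which do not overlap each other here.
Nkx6-1, chr5:101664712-101664961, minus strand: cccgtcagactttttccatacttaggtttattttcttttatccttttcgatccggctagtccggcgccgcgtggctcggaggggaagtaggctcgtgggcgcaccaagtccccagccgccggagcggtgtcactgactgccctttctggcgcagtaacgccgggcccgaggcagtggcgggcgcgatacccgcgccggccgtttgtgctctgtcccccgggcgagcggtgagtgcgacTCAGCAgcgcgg
Pdx1, chr5:147269847-147270096, plus strand: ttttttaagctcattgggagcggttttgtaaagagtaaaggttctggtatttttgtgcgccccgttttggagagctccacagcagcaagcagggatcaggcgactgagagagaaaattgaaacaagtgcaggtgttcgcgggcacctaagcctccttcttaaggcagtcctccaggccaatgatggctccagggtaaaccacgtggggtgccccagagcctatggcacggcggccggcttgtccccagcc
The Nkx6-1 window held 1 match, to TGCTGA, a motif found in 16.1% of 32851 RefSeq promoter windows of this length. The Pdx1 window held no match to the 4 motifs. TAAT occurs in 54.9%, CAGATG in 14.4% and TGTTTAC in 3.17% of these windows.

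Neurod1, a basic helix-loop-helix activator that follows Neurog3 in endocrine development, was highest in β-cells of all 3 libraries. Mutant 1, mutant 2 and control 2 held 211, 237 and 222 CPM in β-cells, 102, 121 and 170 in α-cells and 98.2, 135 and 109 in δ-cells. PP cells held 87.1, 59.2 and 77.2 and non-endocrine cells 25.2, 27.1 and 11.9. The log2 fold change against β-cells was -0.79 ± 0.19 in α-cells (adjusted p = 0.0019), -1.05 ± 0.23 in δ-cells (0.0011), -1.57 ± 0.27 in PP cells (9.11e-05) and -3.64 ± 0.34 in non-endocrine cells (8.21e-10). The α, δ and PP levels could not be ordered, with adjusted p from 0.24 to 0.62 for the 3 pairs. The α call was lost without mutant 1 (adjusted p = 0.088) and without mutant 2 (0.097).

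Insm1, a zinc-finger repressor shared by neuroendocrine cells, was lower in α and PP cells than in β-cells. β-cells of mutant 1, mutant 2 and control 2 held 274, 338 and 360 CPM and δ-cells 196, 276 and 254. α-cells held 113, 96.5 and 120, PP cells 79.8, 152 and 203, and non-endocrine cells 0, 18.1 and 40.3, where 0 UMIs in mutant 1 allow a level of up to 37.8 CPM. Against β-cells the log2 fold change was -1.496 ± 0.216 in α-cells (adjusted p = 5.56e-06), -1.21 ± 0.25 in PP cells (9.23e-04) and -3.43 ± 0.32 in non-endocrine cells (1.03e-09), but -0.51 ± 0.22 in δ-cells (0.10), which passed with no filter on low counts (-0.76, 0.014). The δ level exceeded the α level by 0.99 ± 0.26 (adjusted p = 0.0092), and it did not differ from the PP level beyond their error (0.17).

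Nkx2-2, a homeodomain factor of islet endocrine cells, was lower in δ-cells than in the other endocrine classes. Its level in mutant 1, mutant 2 and control 2 was 926, 876 and 435 CPM in β-cells, 665, 685 and 509 in α-cells and 689, 525 and 395 in PP cells. δ-cells held 466, 417 and 175 and non-endocrine cells 62.9, 63.3 and 16.6. In each library the δ level lay below the β, α and PP levels. Against β-cells the log2 fold change was -1.17 ± 0.19 in δ-cells (adjusted p = 5.33e-05), but -0.18 ± 0.17 in α-cells (0.44) and -0.44 ± 0.19 in PP cells (0.10). Without control 2 both passed, at -0.33 in α-cells (adjusted p = 4.14e-04) and -0.49 in PP cells (0.0012), and the PP difference also passed in cells of 3000 to 6000 UMIs (0.031) and with no filter on low counts (0.011). The δ-cells were also below the α-cells (-0.99 ± 0.20, adjusted p = 0.0011, in a comparison where 6.16% of all genes were lower), and the PP cells lay above them (0.73 ± 0.22, adjusted p = 0.039). α-cells stood at 71.8% and 78.3% of the β level in the mutant libraries and at 117% in control 2, so the order of these classes was not the same in the libraries.

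Pax6, a paired-box factor needed for the hormone genes of several islet types, passed the test among endocrine classes only between α and β-cells. It was at 393, 443 and 367 CPM in β-cells, 352, 282 and 417 in δ-cells, 319, 245 and 299 in PP cells and 252, 276 and 230 in α-cells of mutant 1, mutant 2 and control 2. Non-endocrine cells held 25.2, 45.2 and 19.0. α-cells were below β-cells by a log2 fold change of -0.61 ± 0.18 (adjusted p = 0.0085), a call lost without mutant 1 (0.11), without mutant 2 (0.092) and in cells of 3000 to 6000 UMIs (0.065). The δ (-0.28 ± 0.19, adjusted p = 0.31) and PP (-0.47 ± 0.20, 0.094) levels did not differ from the β level beyond their error. Both passed without control 2 (adjusted p = 0.018 in δ and 0.030 in PP cells), and the PP difference passed with no filter on low counts (0.024). The files also list Pax6os1, an antisense partner of Pax6, and since the strand setting of the counting is not given in the sources used here, reads of the 2 genes may not be fully separated.

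Isl1, a LIM-homeodomain factor of all endocrine types, was highest in δ-cells. δ-cells of mutant 1, mutant 2 and control 2 held 466, 446 and 350 CPM, against 257, 275 and 139 in β-cells. α-cells held 237, 244 and 279, PP cells 181, 305 and 174 and non-endocrine cells 25.2, 45.2 and 9.5. The δ level lay above the levels of all other classes within each library. The log2 fold change of δ-cells against β-cells was 0.87 ± 0.21 (adjusted p = 0.0027), and PP cells lay below δ-cells (-0.87 ± 0.25, 0.037), whereas δ and α-cells did not differ beyond their error (0.64 ± 0.22, 0.064). α and PP cells did not differ from β-cells beyond their error (adjusted p = 0.44 and 0.995). On cells thinned to 500 UMIs, the δ difference was 0.62 and no longer passed (adjusted p = 0.14).

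Rfx6, a winged-helix factor that acts after Neurog3 and supports insulin secretion, was likewise highest in δ-cells. δ-cells held 581, 623 and 405 CPM in mutant 1, mutant 2 and control 2. β-cells held 312, 295 and 296 and α-cells 348, 316 and 252. PP cells held 131, 144 and 222 and non-endocrine cells 37.8, 9.0 and 4.7. Against β-cells Rfx6 was higher in δ-cells by 0.73 ± 0.20 (adjusted p = 0.0093), lower in PP cells (-0.90 ± 0.25, 0.011) and at 0.06 ± 0.20 in α-cells (0.85). δ-cells exceeded α-cells by 0.67 ± 0.22 (adjusted p = 0.040) and PP cells lay below δ-cells (-1.63 ± 0.27, adjusted p = 1.99e-04). The δ against β call was lost without mutant 1 (0.065), without mutant 2 (0.25), on thinned cells (0.13), in cells of 3000 to 6000 UMIs (0.26) and with no filter on low counts (0.16), always with a positive fold change. The PP against β call was lost without mutant 1 (adjusted p = 0.14), without mutant 2 (0.16) and on thinned cells (0.12).

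The promoters of Isl1 and Rfx6, the factors with their highest level in δ-cells, are set beside those of Nkx6-1 and Pdx1 above, in the same 250-base window and with the same capitals.
Isl1, chr13:116309689-116309938, minus strand: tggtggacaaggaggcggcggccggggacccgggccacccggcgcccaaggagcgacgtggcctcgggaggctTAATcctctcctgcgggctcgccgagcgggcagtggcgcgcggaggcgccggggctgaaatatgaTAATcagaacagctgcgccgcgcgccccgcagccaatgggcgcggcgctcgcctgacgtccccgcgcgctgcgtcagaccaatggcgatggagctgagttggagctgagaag
Rfx6, chr10:51685268-51685517, plus strand: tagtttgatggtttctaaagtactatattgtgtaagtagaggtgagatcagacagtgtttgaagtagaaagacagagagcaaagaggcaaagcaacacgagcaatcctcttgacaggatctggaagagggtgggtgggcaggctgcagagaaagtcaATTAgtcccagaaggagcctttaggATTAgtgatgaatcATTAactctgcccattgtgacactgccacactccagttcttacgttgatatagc
The Isl1 window held 2 matches to TAAT and the Rfx6 window 3, and neither held the other motifs. Since TAAT is present in 54.9% of all windows, these matches describe the sequence and do not mark a binding site.

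Foxa2, a forkhead pioneer factor of endodermal organs, had the fewest UMIs of the 10 factors in β-cells, and its levels in the endocrine classes did not differ beyond their error. It was at 62.4, 69.6 and 94.5 CPM in β-cells, 80.4, 68.1 and 76.6 in α-cells, 81.8, 64.6 and 139 in δ-cells and 109, 135 and 48.2 in PP cells of mutant 1, mutant 2 and control 2. These rest on as few as 5 UMIs, in PP cells of control 2. Only the non-endocrine cells, at 12.6, 18.1 and 21.3, differed from β-cells (-1.93 ± 0.43, adjusted p = 3.56e-04, but 0.21 in cells of 3000 to 6000 UMIs), while α, δ and PP cells had adjusted p from 0.38 to 0.86. Without control 2, PP cells exceeded β-cells by 0.95 (adjusted p = 0.016).

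At 500 UMIs per cell outside hormone and mitochondrial genes, the share of cells with at least 1 UMI gave a second view of the levels. Mafa was seen in 76.6%, 73.5% and 24.7% of β-cells in the mutant 1, mutant 2 and control 2 libraries. In α-cells the shares were 11.9%, 14.5% and 0%, where 0 of 41 cells allow a share of up to 7.32%. Non-endocrine cells, which should lack Mafa, gave 11.1%, 9.8% and 1.5%, on 6, 5 and 1 cells. Pdx1 was seen in 17.5%, 15.9% and 8.7% of β-cells and in 8.5%, 11.6% and 17.5% of δ-cells, so δ-cells had the lower share in the mutant libraries. The higher δ share in control 2 rested on 7 of 40 cells, with an interval of 7.3% to 32.8%. It did not hold at 1000 UMIs per cell, where control 2 had Pdx1 in 12.5% of δ and 17.4% of β-cells. In non-endocrine cells Pdx1 was seen in 1.9%, 2.0% and 0%, where 0 of 67 cells allow up to 4.48%. Rfx6 was seen in 19.8%, 29.1% and 4 of 40 δ-cells, respectively, against 14.1%, 14.0% and 13.1% of β-cells. The δ share in control 2 had an interval of 2.8% to 23.7%, which includes its β share, so this depth does not settle the order there. At 1000 UMIs per cell control 2 had Rfx6 in 35.0% of δ and 24.8% of β-cells, the same order as in the mutant libraries. Unthinned, with median depths of 1391, 2195 and 6293 such UMIs per β-cell, the shares of β-cells with Mafa were 91.2%, 93.9% and 78.2% and those with Foxa2 8.8%, 13.9% and 39.5%. The corresponding depths of non-endocrine cells were 1204, 1704 and 4367, and 37.0%, 27.5% and 16.4% of them had a UMI of Mafa unthinned.

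**Figure D3:**
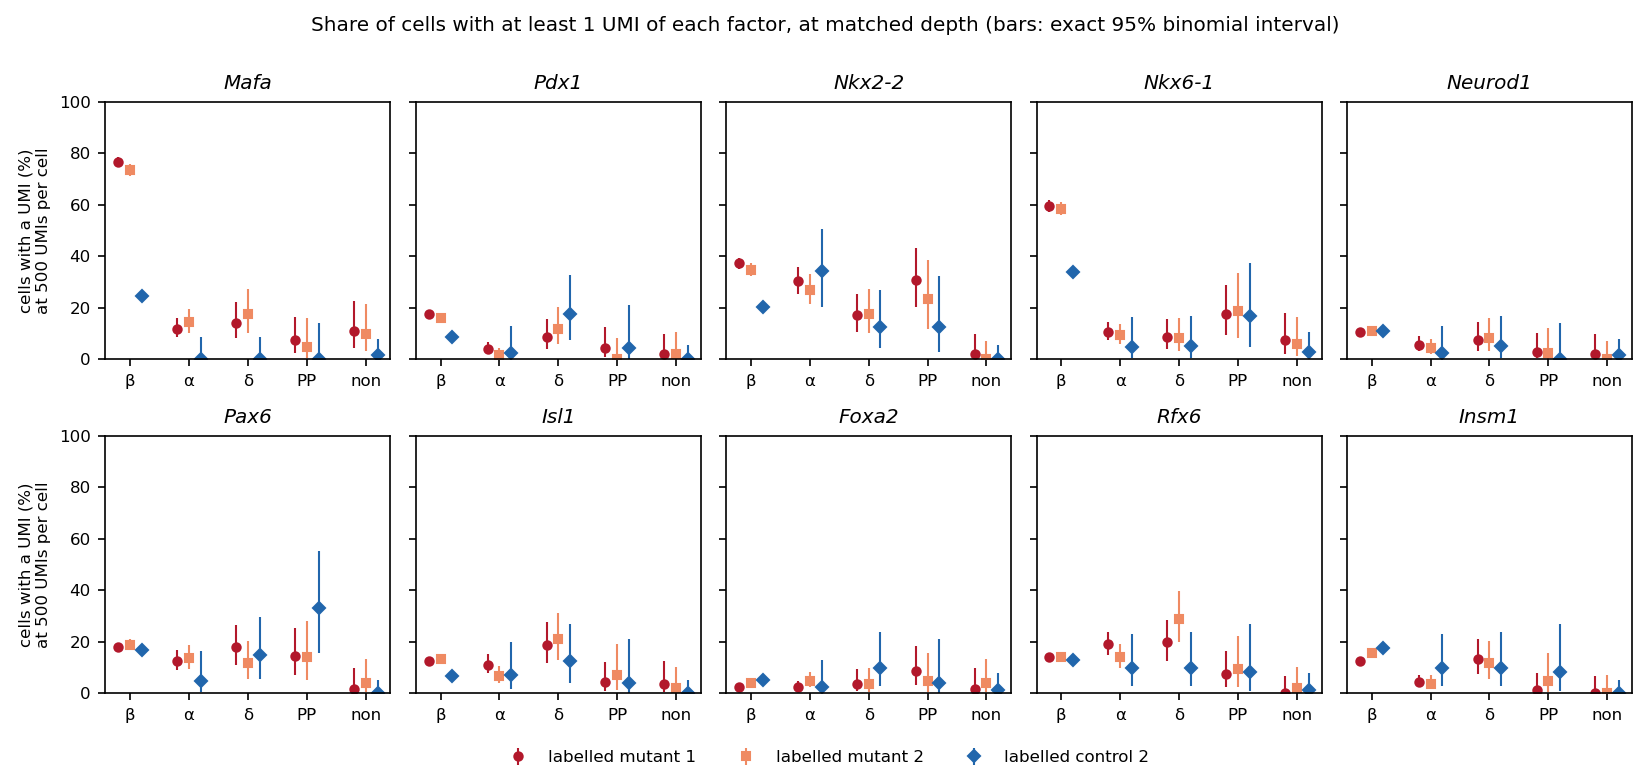
Share of cells (%) with at least 1 UMI of each factor after every cell was thinned to 500 UMIs outside hormone and mitochondrial genes, in β, α, δ, PP and non-endocrine (non) cells. Bars are exact 95% binomial intervals and cover counting error only. Mafa and Nkx6-1 were seen in 76.6% and 59.5% of β-cells of mutant 1 but in 24.7% and 33.9% of those of control 2.

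Genes around these factors were read from lists of their partners, of other endocrine transcription factors and of β-cell function genes they are known to bind or drive. Of 14 tested partners and cofactors, 8 were higher and 1 lower in α than in β-cells, 5 higher and 1 lower in δ-cells and 2 higher in PP cells, with median log2 fold changes of 0.71, 0.29 and 0.49. Over all genes, 16.2% were higher and 18.7% lower in α-cells, 10.5% and 12.5% in δ-cells and 9.6% and 11.9% in PP cells. Among the largest α differences were Id1 (4.56 ± 0.44) and Id3 (3.40 ± 0.52), which block helix-loop-helix factors such as Neurod1 and its partners, and Tcf12 (1.11 ± 0.19). In δ-cells they included the corepressor Tle3 (-2.38 ± 0.63), Meis2 (1.43 ± 0.18) and Tcf4 (1.33 ± 0.18), and in PP cells Meis2 (0.78 ± 0.19) was among those that passed. Meis2 is a TALE homeodomain protein, a class that binds DNA together with other homeodomain factors.

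Among 15 other endocrine factors tested, 6 were higher and 2 lower in α-cells, 4 higher in δ-cells and 3 higher and 1 lower in PP cells, with medians of 0.31, 0.39 and 0.12, against the same shares of all genes. Among the largest α differences were Irx2 (3.95 ± 0.41), a marker of mouse α-cells, Etv1 (2.47 ± 0.21) and the glucose-responsive factor Mlxipl (-2.15 ± 0.24). Hhex, which specifies δ-cells, led there (5.47 ± 0.52), before Prox1 (1.93 ± 0.24), Etv1 (1.72 ± 0.22) and Hnf4a (1.65 ± 0.35). In PP cells these were Etv1 (2.36 ± 0.22), Mlxipl (-2.25 ± 0.31), Hnf4a (1.65 ± 0.38) and Prox1 (1.22 ± 0.30). Irx2, Hhex and Etv1 were also among the markers used to check the classes. The single tested progenitor factor, the Notch target Hes1, was higher in α-cells (1.32 ± 0.32) and PP cells (1.31 ± 0.44).

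Most function genes were lower outside β-cells, as Mafa, Nkx6-1 and Pdx1 were. Of 13 tested, 9 were lower in α-cells, 10 in δ-cells, 10 in PP cells and 13 in non-endocrine cells, with median log2 fold changes of -1.32, -2.18, -2.45 and -3.45. The shares of all genes lower were 18.7%, 12.5%, 11.9% and 31.9%. The largest α differences were in the prohormone convertase Pcsk1 (-3.31 ± 0.23), the peptide Ucn3 (-3.27 ± 0.22), the granule protein Sytl4 (-3.25 ± 0.29) and the glucose transporter Slc2a2 (-3.23 ± 0.24). In δ-cells they were Sytl4 (-3.45 ± 0.38), Ucn3 (-3.40 ± 0.25), the glucose-6-phosphatase G6pc2 (-3.05 ± 0.22) and Slc2a2 (-2.91 ± 0.28), and in PP cells Ucn3 (-4.55 ± 0.32), Sytl4 (-4.51 ± 0.49), Slc2a2 (-4.19 ± 0.37) and G6pc2 (-3.50 ± 0.24). Rgs4 rose in α-cells (0.97 ± 0.18) and the channel subunit Abcc8 in δ-cells (0.49 ± 0.15). Slc2a2, Ucn3 and G6pc2 also served as β markers.

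Between genotypes, the β-cells of the mutant libraries were set against those of control 2. With 1 control library there is no replicate error for controls, so no test was made, and a factor was counted where both mutant libraries passed a log2 ratio of 0.5 in the same direction. Mafa, Pdx1, Nkx2-2, Nkx6-1 and Isl1 were higher by this rule, and no factor was lower. Among the 7595 genes at a mean of at least 20 CPM, 21.4% were higher and 22.2% lower, so that a difference of this size was common. The median ratios of the 10 factors were 0.49 and 0.63 in mutant 1 and mutant 2, beside -0.03 and 0.02 over all genes. Control 2 differed from the mutant libraries in depth as well, in the insulin share of its β-cells (55.2%, against 40.0% and 42.2%) and in its batch label, and genotype and library cannot be told apart. The labels date 3 of the libraries alike and give control 2 another batch entry that is not a calendar date. The study instead reports lower transcripts of Mafa, Pdx1, Nkx2-2 and Nkx6-1 in mutant β-cells, from duplicate control and mutant samples. Control 1 is not part of the ratios here, and the reason for the opposite direction was not tested.

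**Figure D4:**
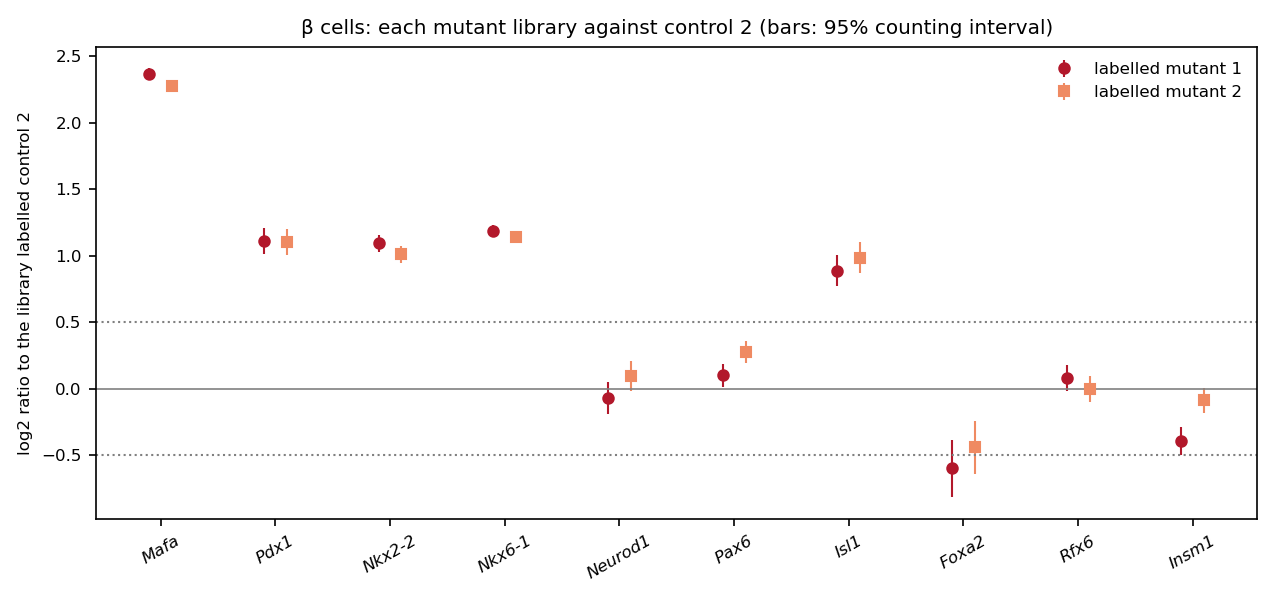
Log2 ratio of each factor's level in β-cells of mutant 1 and mutant 2 to control 2, with exact 95% counting intervals. Dotted lines mark 0.5 and -0.5. Mafa lies above 2 in both libraries, Pdx1, Nkx2-2, Nkx6-1 and Isl1 lie between 0.89 and 1.19, and the other 5 factors lie between -0.60 and 0.27.

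The ratio of Mafa was 2.37 (95% counting interval 2.33 to 2.41) in mutant 1 and 2.28 (2.23 to 2.32) in mutant 2, a mean difference of about 5-fold. The mutant libraries differed by 0.09 from each other, far less than either differed from control 2. Nkx6-1 followed at 1.19 and 1.14, Pdx1 at 1.11 and 1.10, Nkx2-2 at 1.09 and 1.01 and Isl1 at 0.89 and 0.98. The gaps between the mutant libraries for these 4 factors were 0.01 to 0.10. In cells of 3000 to 6000 UMIs of every library, the mean ratio was 2.45 for Mafa, 1.31 for Pdx1, 1.20 for Nkx6-1 and 0.94 for Nkx2-2 and Isl1. Scaled with edgeR's TMM, which puts the median of all genes at -0.25, the means were 2.08 for Mafa, 0.92 for Nkx6-1, 0.86 for Pdx1, 0.81 for Nkx2-2 and 0.69 for Isl1. Scaled to CPM of all UMIs, hormones included, the median of all genes was 0.33 and 0.34 and these means were 2.67, 1.51, 1.45, 1.40 and 1.28.

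The other 5 factors did not pass. Foxa2 was at -0.60 (-0.82 to -0.39) and -0.44 (-0.64 to -0.24) and Insm1 at -0.39 and -0.09, with a gap of 0.31. Pax6 was at 0.10 and 0.27, Neurod1 at -0.07 and 0.09 and Rfx6 at 0.08 and -0.00. Foxa2 stayed negative under every scaling, filter and depth tried, from -0.79 to -0.17, whereas Neurod1, Pax6, Rfx6 and Insm1 took either sign. Scaling also moved the balance of all genes, of which 49.1% of those past 0.5 were higher in the mutant libraries in the main scaling, 74.8% in CPM of all UMIs, 28.7% with TMM and 33.8% with DESeq2 size factors.

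Markers of other cells in the β class moved with the libraries as well. Gcg was at 5295 and 6405 CPM in β-cells of the mutant libraries and 368 in control 2. The summed level of the 5 α markers outside hormones was 1347, 1571 and 5622 in mutant 1, mutant 2 and control 2, that of 7 endothelial markers 175, 114 and 71.4 and that of 7 leukocyte markers 162, 216 and 127. Duct (568 to 885), acinar (37.7 to 116), Schwann (32.1 to 71.9), stellate (14.3 to 40.3) and δ markers (6.2 to 22.1) were present as well, in CPM summed over each list, with Ghsr and Sox10 at 0 in mutant 2. Their part in the ratios was not tested.

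Outside β-cells the counts were small and the intervals wide. Mafa, Pdx1 and Nkx6-1 passed in α-cells, where 17.4% of all genes were higher and 19.8% lower. Pdx1 in α-cells rested on 4 UMIs in control 2, and its intervals included 0 (-0.22 to 3.29 in mutant 1 and -0.56 to 2.98 in mutant 2). In α-cells Mafa was at 2.49 (1.62 to 3.63) and 2.41 (1.54 to 3.55) and Nkx6-1 at 1.31 (0.57 to 2.20) and 0.96 (0.20 to 1.84), close to the ratios in β-cells. In δ-cells, where 16.9% of all genes were higher and 17.8% lower, Mafa, Nkx2-2, Nkx6-1 and Rfx6 were higher and Foxa2 lower. Pdx1 in δ-cells was at -0.22 (-1.20 to 0.70) and 0.20 (-0.58 to 1.0), against 1.11 and 1.10 in β-cells. In PP cells (16.4% higher and 20.7% lower among all genes) Mafa, Pdx1 and Foxa2 were higher and Rfx6 lower. In non-endocrine cells, all factors except Mafa and Nkx6-1 rested on 7 UMIs or fewer in each mutant library, and those higher or lower were not counted. Mafa there was at 2.88 (2.08 to 3.99) and 2.30 (1.47 to 3.42), on 26, 24 and 17 UMIs in mutant 1, mutant 2 and control 2. Nkx6-1 there was at 1.95 (0.86 to 3.28) and 1.49 (0.38 to 2.80), on 12, 12 and 15 UMIs. The ratios of Mafa were thus of similar size in non-endocrine cells, which should lack it, and in α and β-cells. Mafa in PP cells of control 2 rested on 2 UMIs, Pdx1 on 3 and Foxa2 on 5.

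In β-cells, the function genes had 8 of 14 higher and 3 lower by the same rule, with medians of 0.92 and 0.73 in mutant 1 and mutant 2, where 21.4% of all genes were higher and 22.2% lower. The cation channel Trpm5 was at 3.08 and 2.97, the incretin receptor Gipr at 1.92 and 2.03 and Sytl4 at 1.39 and 1.51, whereas Rgs4 was at -1.65 and -1.32. Of 15 partners at the minimum level 4 were higher and 1 lower, with medians of 0.21 and 0.16, and the share higher was near that of all genes. Rcor1 (1.08 and 0.95), the DNA methyltransferase Dnmt3a (1.02 and 0.98) and Meis2 (0.91 and 0.82) were higher and the methyltransferase Setd7, a partner of Pdx1, was lower (-1.22 and -0.88). Of 13 other endocrine factors (medians -0.11 and -0.04) 3 were lower, a share near that of all genes, namely Bach2 (-1.71 and -1.97), Hnf4a (-1.06 and -1.02) and Etv1 (-0.78 and -0.94), and Sox4 was at 0.86 and 0.50. Hes1, the 1 progenitor factor at the minimum level, was higher (0.88 and 0.95).

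Within the β-cells of a library, the measured r between factors lay near 0, in counts too sparse to tell a weak relation from none. Over the 45 pairs, with every cell thinned to 500 UMIs, the median Pearson's r was -0.0053 in 1914 cells of mutant 1, -0.0025 in 1418 cells of mutant 2 and 0.0015 in 1982 cells of control 2. Thinning left out 220, 63 and 0 shallower β-cells. The pairs ranged from -0.054 to 0.094, and 0 of the 45 passed 0.1 in any library. Mafa and Nkx6-1 had an r of 0.037, 0.017 and 0.094, and Nkx6-1 was seen in 58.9% of the mutant 1 cells with a UMI of Mafa and in 61.2% of those without. In control 2 these shares were 39.7% and 31.9%. The cells of a library share depth and preparation, and in counts this sparse a weak r is not a finding.

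**Figure D5:**
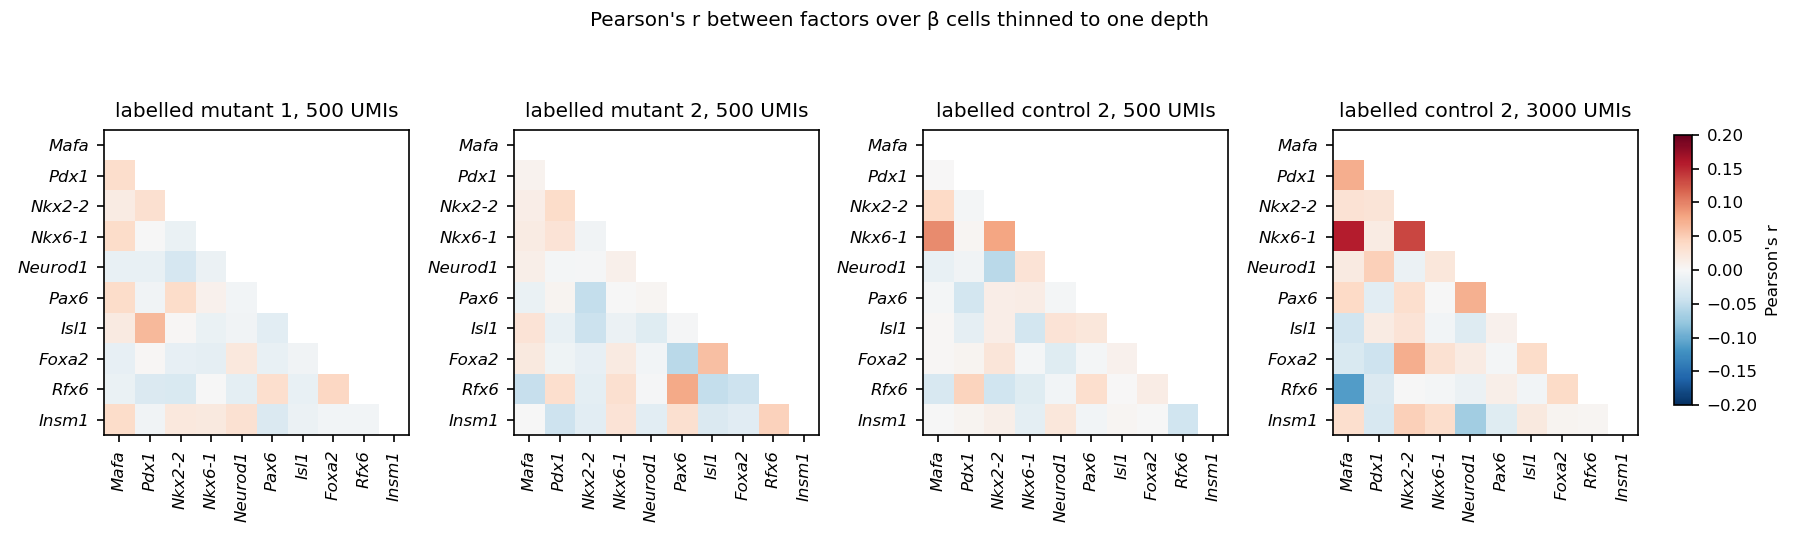
Pearson's r between each pair of factors over β-cells, thinned to 500 UMIs in mutant 1, mutant 2 and control 2 and to 3000 UMIs in control 2, on a colour scale from -0.2 to 0.2. At 500 UMIs every pair lies between -0.054 and 0.094. At 3000 UMIs Mafa with Nkx6-1 reaches 0.157 and Nkx2-2 with Nkx6-1 reaches 0.133.

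At 1000 UMIs per cell, 1 pair passed 0.1 in mutant 1 (Pdx1 and Isl1, 0.115, against 0.015 in mutant 2 and -0.021 in control 2), 1 in control 2 (Mafa and Nkx6-1, 0.101, against 0.018 and 0.065 in mutant 1 and mutant 2) and 0 in mutant 2. A depth of 3000 UMIs per cell was added for control 2 after the data had been seen. Over 1558 such β-cells of control 2 the median r was 0.016, the range was -0.111 to 0.157 and 2 pairs passed 0.1. Mafa counts had the highest variance to mean ratio at this depth, 2.69, with a mean of 1.94 and at most 15 UMIs in a cell. Pdx1 (ratio 1.09, mean 0.55) and Isl1 (1.08, mean 0.43) were nearer the value of 1 that counting alone gives. The ratio rises with the mean count, so factors of unlike means cannot be ranked by it. Nkx6-1 had a ratio of 1.48 at a mean of 2.72, Rfx6 1.44 at 0.86, Nkx2-2 1.28 at 1.35 and Neurod1 1.27 at 0.67. Foxa2, with the lowest mean (0.29), had a ratio of 1.18. Against the function genes, Mafa had its highest r with G6pc2 (0.218), Slc2a2 (0.195) and Slc30a8 (0.162) in these cells. At 500 UMIs, a β-cell showed a median of 3 of the 10 factors in each mutant library and 1 in control 2, and 2.51%, 2.47% and 17.9% of β-cells showed none.

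Over the 15 class sums of the 3 libraries, the genes whose log2 levels ran most nearly parallel to each factor were ranked among 8159 genes. These are descriptions over sums that share libraries. The non-endocrine sums are among the 15, and all 10 factors were lower there than in β-cells. The r values therefore also carry the difference between endocrine and non-endocrine cells, and a high r does not mean a like pattern among endocrine classes. Mafa was closest to Atf5 (r = 0.954), Tmed9 and Fam151a, and Pdx1 to Acly (0.961), Mlxipl and Cntnap2. Nkx6-1 was closest to Tmem167b (0.972), Kdelr1 and Dhdds, and Nkx2-2 to Cpe (0.971), Scgn and Il6ra. Pax6 stood nearest to Snap25 (0.984), Mapk10 and Kcnma1, Isl1 to Rap1gap2 (0.974), Nalcn and Scn9a, and Rfx6 to Prkar1b (0.972), Ksr2 and Plcl2. The nearest to Neurod1 were Syt13 (0.953), Hook2 and Ccnd2, to Insm1 Pax6os1 (0.976), Krt7 and Syngr1 and to Foxa2 Stard10 (0.936), and Nup210 was among the 3 nearest to Foxa2. Among the factors themselves, Isl1 and Rfx6 had an r of 0.93, Isl1 and Pax6 0.93 and Mafa and Nkx6-1 0.79, whereas Mafa and Foxa2 had 0.08 and Mafa and Insm1 0.13.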

How the data were processed

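Islet cells were profiled in 4 labelled single-cell libraries, of which 3 were analysed. The deposited values are raw UMI counts, which the authors made with DropEst per the study and did not normalize. The submitters' processing notes name GRCm39 and Seurat. The aligner and annotation are not given in the sources used here.

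Cells with at least 500 UMIs, at least 100 genes and at most 10% mitochondrial UMIs were kept. The study states limits of the same size, but some deposited barcodes lay outside them. β-cells had an insulin share of at least 20% with glucagon, somatostatin and pancreatic polypeptide below their limits, which were the larger of 1% and 10 times the median share of the library. α, δ and PP cells had such a hormone at its limit and an insulin share under 20%. Non-endocrine cells had none and at least 1% and 5 UMIs from non-endocrine markers. Cells with insulin and another hormone (49, 39 and 29) were kept apart as possible doublets, and 204, 101 and 100 cells stayed unclassified. No doublet caller was run.

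UMIs were summed per library and class. Classes were compared with edgeR 4.0.16 in R 4.3.3 (quasi-likelihood test, TMM, filterByExpr, hormone and mitochondrial genes left out, 15 sums, 8 residual degrees of freedom). DESeq2 1.42.0 served as an alternative. Library ratios used a prior count of 1 on UMIs per 1000000 UMIs outside hormone and mitochondrial genes and a minimum mean of 20 on that scale. Intervals are exact at 95% and cover counting error only, and a count of 0 was given a limit of 3 counts. The edgeR step was checked on counts simulated for α against β-cells over 5613 genes and recovered 95 of 101 changes of 4-fold and 65 of 99 of 2-fold. Changes were put only into α-cells and only into genes of higher counts, with a fixed dispersion. The check therefore does not give the recovery in δ, PP or non-endocrine cells or for genes of low counts. Mutant 1 and mutant 2 differed by more than sampling noise (chi-square per degree of freedom 4.54 over 13182 genes). Each library is a pool of mice, and the block takes out what differs between libraries in all classes alike. The p-values test a class difference against the variation that library and class leave over in the 15 sums, counting error included. That variation is pooled over the classes, so it is not the spread of any 1 class difference between libraries. Class differences that depend on genotype enter this variation.

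The factors and gene lists were chosen with earlier results of these data known. All 10 factors were named, with the 4 genes of each list that differed most in a comparison (among called genes, or among genes at the minimum level for library ratios) and the 3 genes most like each factor. A few genes that this rule names are not reported here. Comparisons between classes other than β were added after levels had been seen. Python 3.11.15, numpy 2.4.6, scipy 1.17.1 and pandas 2.3.3 were used. Alternatives covered the class limits, cell filter, depth, scaling, test, low-count filter, prior count and each library left out.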

Additional observations from a re-analysis of the deposited data

Results flagged for a closer look

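Of the factors, 3 had ratios to control 2 in a further class that ran opposite to those in β-cells in both mutant libraries. No minimum size was set. The share of all genes that run opposite in this way was not computed, so the number says nothing particular about the factors. Pax6 was at a mean log2 ratio of -0.40 in δ-cells and 0.19 in β-cells. Isl1 was at -0.21 in α-cells and 0.94 in β-cells. Foxa2 was at 1.20 in PP cells and -0.52 in β-cells. The counting intervals of Isl1 in α-cells included 0 in both mutant libraries (-0.73 to 0.27 and -0.67 to 0.30), and that of Pax6 in δ-cells did in mutant 1 (-0.83 to 0.33). With 1 control library the differences between classes were not tested. Foxa2 in PP cells of control 2 rested on 5 UMIs, and the counting intervals of its ratios there, -0.36 to 2.99 in mutant 1 and -0.03 to 3.29 in mutant 2, include 0.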

How the results depend on the processing

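Of the single class comparisons of a factor with β-cells recomputed under the alternatives, 549 kept their direction and side of the threshold, 21 lost a call, 9 gained one and 13 changed sign, none of them called. The sign changes were in Isl1 α against β-cells on cells thinned to 500 UMIs (-0.49) and with each library left out (-0.062 without control 2, up to 0.45 without mutant 2), Foxa2 α against β-cells with no filter on low counts (-0.061) and with each library left out (-0.10 without mutant 1, up to 0.25 without control 2), Rfx6 α against β-cells at 3000 to 6000 UMIs (-0.13) and with no filter (-0.074) and Foxa2 δ against β-cells with no filter (-0.021). Isl1 in PP against β-cells turned positive at an insulin share of 30% (0.034), with non-endocrine cells set by hormone shares alone (0.0015), with DESeq2 size factors (0.043), with hormone and mitochondrial genes kept (0.0029), with DESeq2's Wald test (0.040) and without mutant 1 (0.23, against -0.12 without mutant 2). The number of factors lower in δ-cells was 3 on thinned cells. The number higher in δ-cells was 1 at 3000 to 6000 UMIs, 0 on thinned cells, 1 with no filter, and 1 to 2 when each library was left out. The number higher in PP cells was 0 to 1 with each library left out, through Foxa2 without control 2. With each library left out, 4 to 7 factors were lower in α, 4 to 6 in δ and 5 to 8 in PP cells. In β-cells of the mutant libraries against control 2, 5 factors were higher under every alternative, and 1 factor, Foxa2, was lower with edgeR's TMM, with DESeq2 size factors and without mutant 2 (0 to 1 with each mutant library left out). Leaving out mutant 1 kept the number of lower factors at 0. The cause of these changes was not tested. The median r over pairs was 0.0073 in mutant 1 at 1000 UMIs, 0.0061, 0.0046 and 0.0089 in mutant 1, mutant 2 and control 2 at 1000 UMIs of all genes, -0.0011 as Spearman's rho in mutant 1 and 0.016 in control 2 at 3000 UMIs. The median share of β-cells with a UMI over the factors rose from 15.8%, 15.8% and 14.9% to 28.9%, 29.5% and 27.2% at 1000 UMIs, which samples more UMIs per cell. Of the library ratios, 88 moved by less than the spread between the mutant libraries and 42 by more. No paired analysis was possible because the mutant and control libraries analysed share only replicate number 2. In non-endocrine cells the calls of Isl1 (-0.47) and Rfx6 (-0.42) were lost with the class set by hormone shares alone. The smallest class sums were 79449 and 110569 UMIs outside hormone and mitochondrial genes, in non-endocrine cells of mutant 1 and mutant 2, and 103670 in PP cells of control 2.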
